A study of Homo sapiens with 11 samples.

Results

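The expression of 10 genes of the PIWI-interacting RNA (piRNA) pathway and of germ cell RNA control was followed in total RNA of HCT116, a human cell line established from a colorectal carcinoma. They were taken by their symbols from the gene column of the deposited expression table, which holds 58699 genes, and all 10 symbols were found once. The genes were PIWIL1, PIWIL2, PIWIL4, MAEL, ASZ1, TDRD1, TDRD9, DDX4, DDX43 and DAZL. No expression value entered the choice, although earlier results of these data were known when the list was drawn up.

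The cells carried a control siRNA to luciferase (siLuc) or one to Staufen1 (siStau1), an RNA-binding protein that attaches to double-stranded RNA. Each was treated with the solvent DMSO or with decitabine (DAC), a cytidine analogue that is built into DNA and traps DNA methyltransferases, at 500 nM for 5 days per the labels. This gave 4 groups of 2 total RNA libraries, and where 4 values follow each other below, they stand in group order: siLuc cells with DMSO and with DAC, then siStau1 cells with DMSO and with DAC. All groups carry an siRNA, so untransfected cells are not among them, and the labels name no siRNA sequence and do not say whether the 2 libraries of a group came from separate cultures. The table gives 1 FPKM value (fragments per kilobase of transcript, scaled to the fragments of the library) for each group and none for its libraries, which leaves the spread between replicates and the depth unknown. Significance below is the authors' own test: a gene is called where the q-value in the authors' deposited table is under 0.05.

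The piRNA pathway protects the germ line from transposons. PIWI proteins, a germ cell branch of the Argonaute family, carry piRNAs as guides, cut transposon transcripts in the cytoplasm and, in the nucleus of fetal male germ cells, direct DNA methylation to transposon copies. Tudor-domain proteins bind methylated arginines of PIWI proteins and hold them in germ granules, where RNA helicases remodel the RNA. Most of these genes are silent in somatic tissues, and several of their promoters are methylated there.

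The promoter windows of 6 of the genes are shown because they let those that were present with decitabine be read beside those that were not. Each is the 250 bases before a RefSeq start site on GRCh38.p14, 5′ to 3′ on the gene's strand, with every CpG dinucleotide in capitals, since CpG is the substrate of DNA methylation. The first 4 belong to genes at 2.39 FPKM or more with decitabine in both siRNA arms, and the last 2 to genes listed at or near 0 in all 4 groups.
DAZL, chr3:16605424-16605673, minus strand: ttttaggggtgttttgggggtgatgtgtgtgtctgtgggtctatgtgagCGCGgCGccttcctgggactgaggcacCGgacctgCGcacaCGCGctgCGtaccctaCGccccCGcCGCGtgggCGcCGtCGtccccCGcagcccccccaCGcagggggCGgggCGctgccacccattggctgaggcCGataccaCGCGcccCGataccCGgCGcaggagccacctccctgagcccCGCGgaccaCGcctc
MAEL, chr1:166989030-166989279, plus strand: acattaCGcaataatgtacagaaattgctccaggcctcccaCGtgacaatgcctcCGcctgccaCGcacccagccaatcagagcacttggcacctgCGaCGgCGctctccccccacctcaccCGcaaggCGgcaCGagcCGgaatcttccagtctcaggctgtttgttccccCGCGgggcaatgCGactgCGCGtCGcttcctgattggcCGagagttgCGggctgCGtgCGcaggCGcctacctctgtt
TDRD1, chr10:114179037-114179286, plus strand: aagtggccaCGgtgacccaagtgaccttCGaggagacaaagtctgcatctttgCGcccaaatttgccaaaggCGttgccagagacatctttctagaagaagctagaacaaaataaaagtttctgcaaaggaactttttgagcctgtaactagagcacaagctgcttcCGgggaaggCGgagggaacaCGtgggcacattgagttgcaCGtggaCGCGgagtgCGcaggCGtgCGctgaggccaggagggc
DDX43, chr6:73394578-73394827, plus strand: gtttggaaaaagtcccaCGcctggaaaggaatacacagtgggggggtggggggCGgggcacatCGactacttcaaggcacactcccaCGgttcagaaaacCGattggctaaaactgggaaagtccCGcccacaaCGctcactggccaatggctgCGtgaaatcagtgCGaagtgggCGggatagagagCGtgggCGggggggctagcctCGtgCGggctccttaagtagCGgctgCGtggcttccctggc
PIWIL1, chr12:130337637-130337886, plus strand: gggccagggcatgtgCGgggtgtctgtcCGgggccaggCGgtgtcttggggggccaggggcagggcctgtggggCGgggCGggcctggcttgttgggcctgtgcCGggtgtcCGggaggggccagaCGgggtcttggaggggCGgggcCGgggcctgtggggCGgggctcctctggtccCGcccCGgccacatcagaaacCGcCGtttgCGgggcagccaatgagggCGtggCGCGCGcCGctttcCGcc
ASZ1, chr7:117427494-117427743, minus strand: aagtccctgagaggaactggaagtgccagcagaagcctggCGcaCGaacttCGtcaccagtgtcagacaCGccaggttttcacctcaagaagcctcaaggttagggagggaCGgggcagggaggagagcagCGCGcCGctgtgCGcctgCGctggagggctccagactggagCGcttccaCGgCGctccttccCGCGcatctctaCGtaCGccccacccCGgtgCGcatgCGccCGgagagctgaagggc

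CpG content did not set the silent genes apart in these windows. The windows of DAZL, MAEL, TDRD1 and DDX43 held 28, 22, 13 and 16 CpG, and those of PIWIL1 and ASZ1 held 22 and 21. A window of TDRD9 held 35. Over 35116 RefSeq windows of the same length the median was 11 CpG, with quartiles of 3 and 23, so each of these 7 windows lay above the median. Their starts were 0 to 171 bases from the nearest principal start in GENCODE. MAEL has a further RefSeq start 13527 bases away whose window held 51 CpG, more than 99.9% of windows. For DDX4 the RefSeq window lay 28861 bases from the principal start and held 0 CpG. Methylation itself was not measured in these samples.

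**Figure D1:**
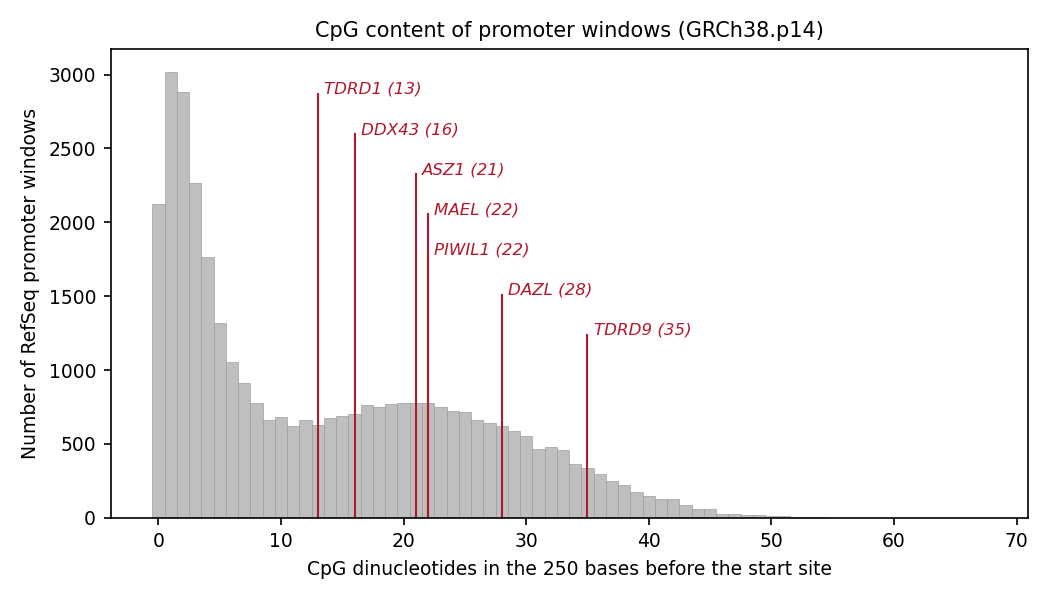
Histogram of the number of CpG dinucleotides in the 250 bases before 35116 RefSeq start sites (grey bars, number of windows), with a red line for each of 7 genes at its own count. TDRD1 (13) and TDRD9 (35) mark the ends of the range, and the silent PIWIL1 (22) and ASZ1 (21) lie between DDX43 (16) and DAZL (28).

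The letters of 2 motifs were searched in the same windows on both strands. The E-box CACGTG was found in 2 of the 7 windows at a principal start, those of MAEL (211 bases before the start) and TDRD1 (65 and 45 bases before it), and in 6.34% of all windows. The motif TCCCGC, known as a binding sequence of E2F6, which represses germ cell genes, was found in 3 of 7, those of DDX43, PIWIL1 and ASZ1, and in 23.5% of all windows. CACGTG and TCCCGC were thus found in windows of different genes among the 7. In the window of the other DAZL start, 154 bases before it for CACGTG and 213 bases before it for TCCCGC, both were found. A match of letters shows no binding.

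Without decitabine every one of the 10 genes was under 0.5 FPKM. In siLuc DMSO, 6 of the 10 were listed at 0 and the highest was PIWIL4 at 0.434 FPKM, and in siStau1 DMSO again 6 were listed at 0 and the highest was PIWIL4 at 0.0843. With decitabine, 8 of the 10 were above 0.5 FPKM in both siRNA arms, a limit chosen after the values were seen. Of 7644 protein-coding genes under 0.5 FPKM in both DMSO groups, 10.9% were above 0.5 in both DAC groups. The summed level of the 10 genes was 0.8 FPKM with DMSO and 44.9 with DAC in siLuc cells, and 0.177 and 45.2 in siStau1 cells. In these bulk samples, more cells with a transcript and more transcript per cell cannot be told apart.

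**Figure D2:**
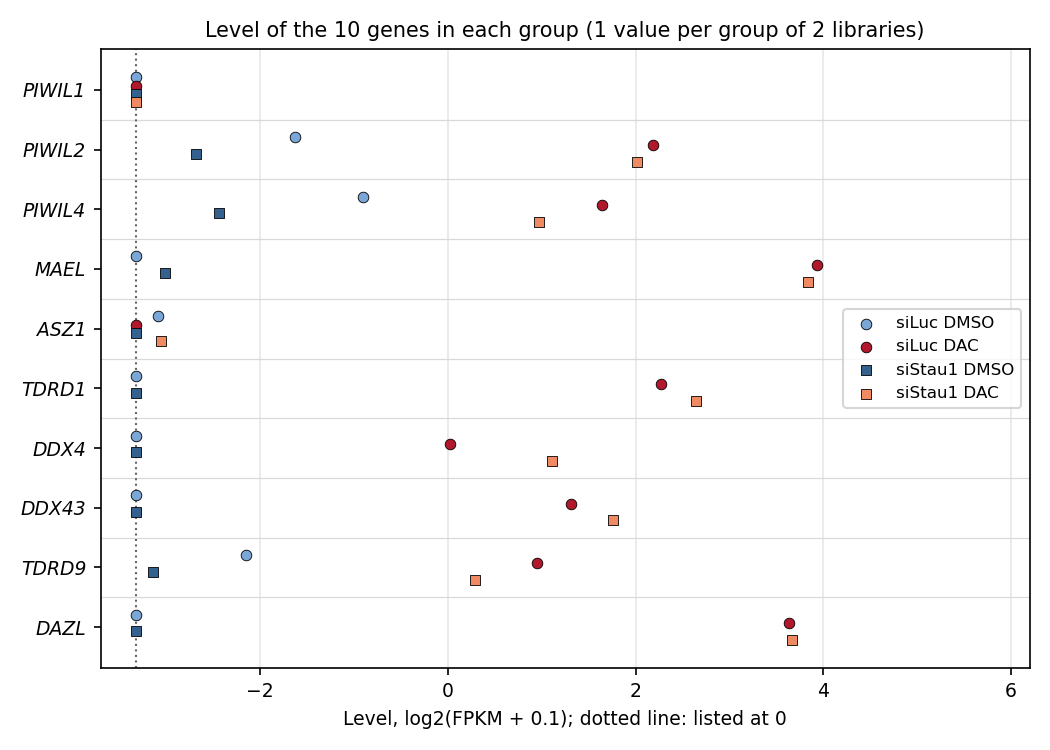
Level of each of the 10 genes (rows) as log2(FPKM + 0.1) on the horizontal axis, with circles for siLuc and squares for siStau1 cells, blue for DMSO and red or orange for DAC; the dotted line marks genes listed at 0, and each point is the authors' 1 value per group of 2 libraries, so there are no error bars. The DAC points of 8 genes lie to the right of both DMSO points, while all points of PIWIL1 and ASZ1 lie on the dotted line or beside it.

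Among the PIWI proteins, PIWIL2 and PIWIL4 were present with decitabine and PIWIL1 was not. PIWIL2 (ENSG00000197181.11, chromosome 8, 22275297 to 22357563) is the counterpart of mouse MILI, which cuts transposon transcripts in the cytoplasm. It stood at 0.224 FPKM with DMSO and 4.45 with DAC in siLuc cells, and at 0.056 and 3.95 in siStau1 cells. Both DAC values exceeded both DMSO values, and DAC was 19.9 times DMSO in the siLuc arm and 70.5 times DMSO in the siStau1 arm. It rose with decitabine in siLuc cells (q-value 0.0413 in the authors' deposited table) and was not called in siStau1 cells (q-value 0.598), where the lower DMSO value gave the larger ratio.

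PIWIL4 (ENSG00000134627.11, chromosome 11, 94543840 to 94621421) is the counterpart of mouse MIWI2, the nuclear PIWI protein that guides DNA methylation. Its values were 0.434 FPKM with DMSO and 3.03 with DAC in siLuc cells, and 0.0843 and 1.86 in siStau1 cells. The log2 ratios of DAC to DMSO, with 0.1 FPKM added to each value, were 2.55 and 3.41. Neither comparison was called in the authors' deposited table, with q-values of 0.464 in siLuc and 0.236 in siStau1 cells. FUT4, a fucosyltransferase gene, lies within its span on the same strand and was at 1.38, 2.68, 1.29 and 2.19 FPKM in group order. How fragments shared by overlapping genes were divided is not given in the sources used here, so both levels are uncertain.

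PIWIL1 (ENSG00000125207.7, chromosome 12, 130337887 to 130372637), whose mouse counterpart MIWI acts in meiotic and later male germ cells, was listed at 0 in all 4 groups and was not tested by the authors. PIWIL3, the remaining human PIWI gene, did not exceed 0.166 FPKM. The next protein-coding genes beside PIWIL1 were silent too, with FZD10 listed at 0 in every group and RIMBP2 at 0.0417 FPKM or less.

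The cofactor MAEL reached the highest level of the 10 genes. MAEL (ENSG00000143194.12, chromosome 1, 166975582 to 167022214) is the germ granule protein Maelstrom, required for transposon silencing in the male germ line. In siLuc cells it was listed at 0 with DMSO and stood at 15.2 FPKM with DAC, and in siStau1 cells it was at 0.0241 and 14.2. Its level with decitabine was above that of 74.2% of protein-coding genes in siLuc cells and 73.5% in siStau1 cells. MAEL rose in siLuc cells (q-value 0.00162 in the authors' deposited table) and was not called in siStau1 cells (q-value 0.598).

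TDRD1 (ENSG00000095627.9, chromosome 10, 114179270 to 114232304), a Tudor protein that binds PIWI proteins in germ granules, was listed at 0 in both DMSO groups. With decitabine it stood at 4.73 FPKM in siLuc and 6.16 in siStau1 cells. It rose in both arms, each with the smallest q-value of the authors' deposited table, 0.00162. ASZ1 (ENSG00000154438.7, chromosome 7, 117363222 to 117428123), an ankyrin-repeat scaffold of the granules between mitochondria, was at 0.0178, 0, 0 and 0.0202 FPKM in group order. It was not tested by the authors, and its flanking genes WNT2 and CFTR were at 0.1 FPKM or less in every group.

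The 3 RNA helicases were at 0.125 FPKM or less without decitabine. DDX4 (ENSG00000152670.18, chromosome 5, 55738017 to 55817157), the DEAD-box helicase VASA that marks germ cells across animals, was listed at 0 with DMSO in both arms and, with decitabine, stood at 0.916 FPKM in siLuc and 2.06 in siStau1 cells. It rose in both arms (both q-values 0.00162 in the authors' deposited table), although its level in siLuc DAC was the lowest of the 8 genes present there. SLC38A9, a lysosomal amino acid transporter gene on the opposite strand, overlaps DDX4 and was at 7.07 to 11.5 FPKM over the 4 groups. The library kit keeps strand per the labels, but whether the counting used it is not given in the sources used here. How fragments of the overlap were assigned was not tested.

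DDX43 (ENSG00000080007.7, chromosome 6, 73394748 to 73417569) encodes a DEAD-box helicase known as the cancer-testis antigen HAGE. It was listed at 0 with DMSO in both arms and, with decitabine, stood at 2.39 FPKM in siLuc and 3.28 in siStau1 cells. It was not called in either arm, with q-values of 0.455 and 0.287 in the authors' deposited table. TDRD9 (ENSG00000156414.18, chromosome 14, 103928462 to 104052667), a helicase with a Tudor domain that works with the counterpart of PIWIL4 in mouse, was at 0.125 FPKM with DMSO and 1.83 with DAC in siLuc cells, and at 0.013 and 1.12 in siStau1 cells. It too was not called, with q-values of 0.574 and 0.557 in the authors' deposited table.

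DAZL (ENSG00000092345.13, chromosome 3, 16586792 to 16670306) is an RNA-binding protein that promotes translation in germ cells and does not itself carry piRNAs. It was listed at 0 with DMSO in both arms and, with decitabine, stood at 12.3 FPKM in siLuc and 12.6 in siStau1 cells, next after MAEL in each. It rose in both arms (both q-values 0.00162 in the authors' deposited table). The order of the levels in siLuc DAC was MAEL, DAZL, TDRD1, PIWIL2, PIWIL4, DDX43, TDRD9 and DDX4, and in siStau1 DAC the first 4 stood in that order and were followed by DDX43, DDX4, PIWIL4 and TDRD9. With 1 value per group, it cannot be said which neighbours in these orders differ beyond the spread between libraries.

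In all, 5 of the 8 tested genes rose with decitabine in siLuc cells (DAZL, TDRD1, MAEL, DDX4 and PIWIL2) and 3 rose in siStau1 cells (DAZL, TDRD1 and DDX4). At under 0.5 FPKM with DMSO, these genes had little or no room for a call lower, so the absence of such calls is no result. Over all genes tested, 8.71% of 17504 were called higher in siLuc cells and 4.56% of 16979 in siStau1 cells. Calls lower made up 4.78% and 2.89% of all genes tested, and calls in either direction 13.5% and 7.46%. Those shares cover genes of every DMSO level. Among tested genes listed at 0 with DMSO and at 1 to 20 FPKM with decitabine, 62.6% of 401 in siLuc and 61.0% of 269 in siStau1 cells were called. That split was chosen after the values were seen. At a q-value under 0.01, 4 and 3 of the 10 genes were called, against 7.97% and 3.93% of all genes tested. The median log2 ratio over the 10 genes was 3.58 in siLuc and 4.56 in siStau1 cells, against 0.23 and 0.11 over all genes tested. Since 6 of the 10 were listed at 0 with DMSO in each arm, these medians depend on the 0.1 FPKM added. DAZL, DDX43 and TDRD1 belonged to the 0.617% of protein-coding genes (123 of 19940) that were listed at 0 in both DMSO groups and at 1 FPKM or more in both DAC groups. That base holds 11299 genes at 1 FPKM or more in siLuc DMSO, which could not enter the class. The share among genes silent with DMSO was not counted.

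**Figure D3:**
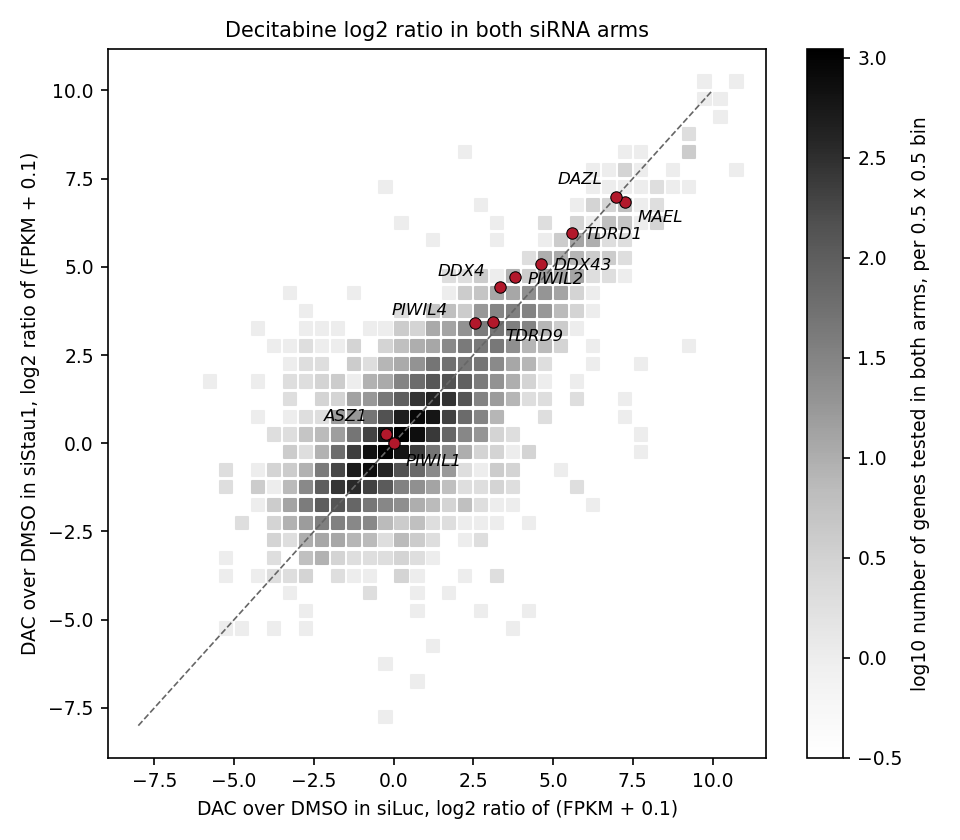
Log2 ratio of DAC to DMSO in siLuc cells (horizontal axis) and in siStau1 cells (vertical axis), with 0.1 FPKM added to each value; grey squares give the log10 number of genes tested in both arms in bins of 0.5 by 0.5, red points are the 10 genes and the dashed line marks equal ratios. MAEL and DAZL, at 12.3 FPKM or more with decitabine, lie at the upper right of the 10, PIWIL1 and ASZ1 lie near the origin, and the position of genes listed at 0 with DMSO depends on the 0.1 added.

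The call differed between the arms for MAEL and PIWIL2. For MAEL, the DAC levels in the 2 arms were 15.2 and 14.2 FPKM, the arm with a DMSO value of 0 was called, and the arm with 0.0241 FPKM was not. When siStau1 DAC was set against siLuc DMSO instead, MAEL was called (q-value 0.00162 in the authors' deposited table), and when siLuc DAC was set against siStau1 DMSO it was not (q-value 0.598). Those comparisons share their groups with the ones above, and in them 4.02% and 9.37% of all genes tested were called higher. PIWIL2 went the other way, called at 0.224 FPKM with DMSO in siLuc cells and not called at 0.056 in siStau1 cells. The share of calls by DMSO level was counted for tested genes between 1 and 20 FPKM with decitabine, a split chosen after the values were seen. In siLuc cells 62.6% of 401 such genes listed at 0 with DMSO were called, against 12.3% of 236 genes above 0 and under 0.1 FPKM. In siStau1 cells the shares were 61.0% of 269 and 11.6% of 198. Between 10 and 20 FPKM with decitabine, the range of MAEL and DAZL, the bins were small and the order was not the same throughout. There, siLuc genes were called in 66.7% of 27 cases when listed at 0, 0 of 10 above 0 and under 0.1, 80.0% of 5 from 0.1 to under 0.5 and 54.5% of 11 from 0.5 to under 1 FPKM. In siStau1 cells the counts in that range were 6 of 14, 1 of 13, 3 of 7 and 1 of 5. DDX43, listed at 0 with DMSO, was not called in either arm.

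**Figure D4:**
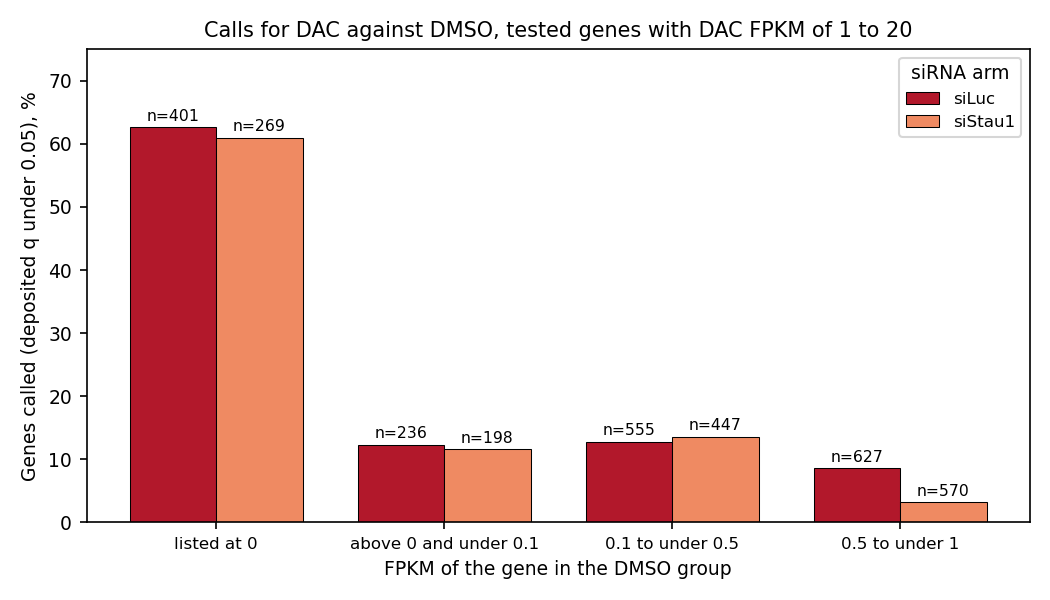
Share of tested genes called at a q-value under 0.05 in the authors' deposited table, among genes at 1 to 20 FPKM with decitabine, by their DMSO level, in siLuc and siStau1 cells; bars start at 0 and numbers of genes are given with the bars. Genes listed at 0 with DMSO were called in 62.6% and 61.0% of cases, and genes above 0 and under 0.1 FPKM in 12.3% and 11.6%.

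Staufen1 knockdown called none of the 10 genes. STAU1 itself was at 35.52, 33.69, 29.98 and 27.1 FPKM in group order. That is a log2 ratio of siStau1 to siLuc of -0.24 with DMSO and -0.31 with decitabine, neither of them called in the authors' deposited table (q-values 0.767 and 0.685), so the label siStau1 rests on the submitters' word and not on a called drop of STAU1 RNA. In DMSO none of the 10 genes was tested by the authors, and 0.799% of 15893 tested genes were called. Over the 10 genes, 4 were at a lower value in siStau1 DMSO than in siLuc DMSO (PIWIL2, PIWIL4, TDRD9 and ASZ1), 1 at a higher value (MAEL) and 5 were listed at 0 in both, with no value above 0.434 FPKM.

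With decitabine, 0 of 8 tested genes were called between the siRNAs and 0 had an unadjusted p-value under 0.05 in the authors' deposited table, where 0.904% of 17263 genes were called. The level in siStau1 DAC divided by that in siLuc DAC was 2.25 for DDX4, 1.37 for DDX43, 1.30 for TDRD1, 1.02 for DAZL, 0.933 for MAEL, 0.887 for PIWIL2, 0.612 for PIWIL4 and 0.608 for TDRD9. For DDX4, the furthest from 1 upward, the authors' deposited table gives a q-value of 0.593. The 3 genes with the highest of these ratios, DDX4, DDX43 and TDRD1, have 40.1%, 41.8% and 40.6% GC in their longest transcript, and the 3 with the lowest, PIWIL2, PIWIL4 and TDRD9, have 46.4%, 45.8% and 46.0%. DAZL and MAEL, between them, have 38.3% and 41.8%. Over 11593 genes at 1 FPKM or more in both DAC groups, the rank correlation of this log2 ratio with GC content was -0.715. Genes are not independent replicates, and the part of GC content in the values of the 10 genes was not tested. Centred within GC bins, the log2 ratio was 0.74 for DDX4, 0.08 for DDX43, 0.03 for TDRD1, -0.19 for PIWIL2, -0.77 for PIWIL4 and -0.69 for TDRD9. DAZL and MAEL, at 0.03 and -0.10 as deposited, were each at -0.46 after that centring, so the sign for DAZL turned, and that for MAEL turned positive when centred on the median gene.

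The response to decitabine was set side by side in the 2 arms without a test, since 1 value per group allows none. The median over the 10 genes of the siStau1 log2 ratio minus the siLuc log2 ratio was 0.41, positive for 8 genes and negative for MAEL. The positive genes include ASZ1 (0.50), which was at or near 0 FPKM in all 4 groups, and DAZL at 0.026. With 1 FPKM added in place of 0.1, the median was 0.039, positive for 6 genes and negative for 3. For DDX4 the difference was 1.09 (0.67 with 1 FPKM added), for PIWIL2 0.89 (0.07) and for PIWIL4 0.85 (-0.10), so the sign for PIWIL4 turned. Both DMSO values of DDX4 were 0, while PIWIL2 and PIWIL4 had lower DMSO and lower DAC values in the siStau1 arm.

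In a list of 24 further piRNA pathway genes, drawn up with earlier results of these data known, 13 lay under 0.5 FPKM in both DMSO groups. Of these 13, 6 were above 0.5 in both DAC groups, beside 10.9% of 7644 such protein-coding genes. RNF17, a Tudor protein of male germ cells, was listed at 0 with DMSO in both arms and rose with decitabine, to 1.65 FPKM in siLuc and 1.27 in siStau1 cells (both q-values 0.00162 in the authors' deposited table). MOV10L1, the helicase that feeds transcripts into piRNA production, was listed at 0 with DMSO in both arms and stood at 1.19 and 1.27 FPKM with decitabine. It rose in siLuc cells (q-value 0.00162 in the authors' deposited table) and was not called in siStau1 cells (q-value 0.41), where its DMSO value was 0 as well.

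FKBP6, a co-chaperone of piRNA loading, was at 0.0381 and 6.69 FPKM in siLuc cells and at 0 and 4.41 in siStau1 cells. HENMT1, the enzyme that methylates the 3′ ends of piRNAs, was at 0.016 and 1.13 FPKM in siLuc cells and at 0 and 1.38 in siStau1 cells. Both were called higher in siStau1 cells (both q-values 0.00162 in the authors' deposited table) and not in siLuc cells (q-values 0.562 and 0.577), so for these genes too the arm with a DMSO value of 0 was the one called. TDRD12, a Tudor helicase protein of piRNA production, stood at 0.0405, 12.4, 0.061 and 9.70 FPKM in group order and was not called in either arm (q-values 0.563 and 0.6 in the authors' deposited table). PNLDC1, the nuclease that trims piRNA 3′ ends, was at 0.0148, 1.71, 0.365 and 0.865 FPKM and was also not called.

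Over the 24 genes, 2 of 16 tested rose with decitabine in siLuc cells and 3 of 17 in siStau1 cells, none fell, and none was called with the knockdown. The shares called higher over all genes tested were 8.71% and 4.56%. The median log2 ratio of DAC to DMSO was 0.71 and 1.04, where all genes tested gave 0.23 and 0.11. PRMT5, the arginine methyltransferase that marks PIWI and many other proteins, was at 128, 173, 106 and 137 FPKM in group order. GTSF1, a PIWI-binding zinc finger protein usually described from germ cells, was at 200, 134, 249 and 146 FPKM, above MAEL in every group on the FPKM scale.

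**Figure D5:**
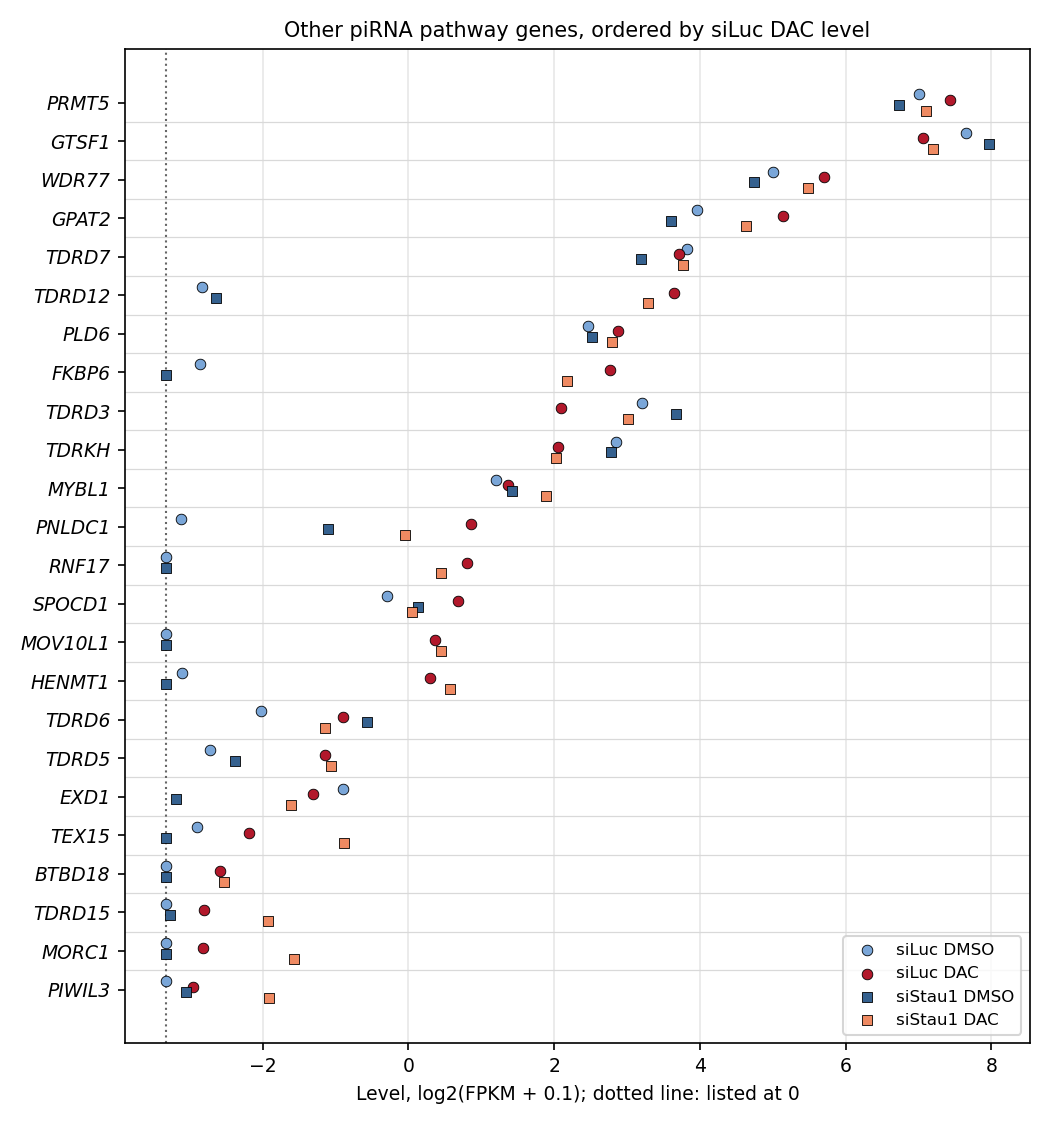
Level of 24 further piRNA pathway genes (rows) as log2(FPKM + 0.1) on the horizontal axis, with circles for siLuc and squares for siStau1 cells, blue for DMSO and red or orange for DAC; the dotted line marks genes listed at 0, and each point is the authors' 1 value per group. FKBP6, HENMT1, MOV10L1, PNLDC1, RNF17 and TDRD12 lie under 0.5 FPKM in both DMSO groups and above it in both DAC groups, while GTSF1 and PRMT5 lie above 100 in all 4.

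Somatic relatives of the 10 genes were expressed throughout. All 15 genes of that list, which holds the AGO proteins and helicases such as DDX3X and DHX9, were at 1.95 FPKM or more in every group. The median log2 ratio of DAC to DMSO was -0.14 in siLuc and 0.00 in siStau1 cells. In the authors' deposited table DHX9, a helicase that unwinds double-stranded RNA, fell with decitabine in siLuc cells from 145 to 70.4 FPKM (q-value 0.0134). No other gene of the list was called in either decitabine comparison or with the knockdown. Over 10953 protein-coding genes at 1 FPKM or more in both siLuc groups, the rank correlation of the decitabine log2 ratio with GC content was 0.659. In siStau1 cells it was 0.624 over 10954 genes. The median log2 ratio in siLuc cells was -0.95 in the bin of lowest GC content and 1.20 in the highest. The part of GC content in the value of DHX9 was not tested.

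Markers of male germ cells after meiosis were at or under 0.698 FPKM. PRM1, PRM2 and TNP1, which package sperm DNA, were listed at 0 in all 4 groups. Among the other germ and stem cell markers, NANOG did not exceed 0.00511 FPKM and KIT did not exceed 0.0255. POU5F1 and GDF9 did not exceed 0.399 FPKM, while TFAP2C and ZP3 were at 1.47 FPKM or more in every group. SYCP3 was at 0.0399, 3.53, 0.0635 and 5.44 FPKM in group order. It was not called with decitabine (q-values 0.0554 in siLuc and 0.0654 in siStau1 cells in the authors' deposited table). STRA8, which opens meiosis, rose in both arms in the authors' deposited table, from listed at 0 to 0.611 FPKM (q-value 0.026) and to 0.636 (q-value 0.00293). Of the 12 germ and stem cell markers, 5 were tested in siLuc and 4 in siStau1 cells, and STRA8 was the one called in each. Over all genes tested, 8.71% and 4.56% were called higher. The summed level of the 12 was 4.84, 10.2, 3.64 and 10.4 FPKM in group order. ACR, a sperm protease, was at 0.698, 0.0509, 0 and 0.0454 FPKM in group order. It was called lower with the knockdown in DMSO (q-value 0.0157 in the authors' deposited table), where 3 of the 12 were tested. In that comparison 0.799% of 15893 tested genes were called.

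Markers of the labelled cell type were mostly present. Of 8 colon epithelial markers, 5 were at 1 FPKM or more in both DMSO groups, among them KRT8, KRT18 and EPCAM, while VIL1 did not exceed 0.198 FPKM in any group. In the authors' deposited table EPCAM fell with decitabine in siLuc cells (259 to 117 FPKM, q-value 0.0157). CDX1 (0 to 0.947 FPKM) and LGALS4 (0 to 1.5) rose in siLuc cells, and CDX1 (0 to 0.791) and KRT18 (509 to 2410) in siStau1 cells. In each arm 7 of the 8 were tested. Over all genes tested, 8.71% in siLuc and 4.56% in siStau1 cells were called higher, and 4.78% and 2.89% lower. The part of GC content in these values was not tested. The 6 fibroblast markers summed to 1.77, 10.5, 1.21 and 6.74 FPKM in group order, mostly COL1A1. That gene was called higher in siStau1 cells, where 1 of the 6 was tested. The 6 leukocyte markers summed to 0.358, 2.27, 0.18 and 2.78 FPKM, of which PTPRC was called higher in siStau1 cells, where 2 of the 6 were tested. COL1A2, LUM and PTPRC were listed at 0 in both DMSO groups, DCN and CD3E in siLuc DMSO only, and FCGR3A in siStau1 DMSO only. Both sums were higher with decitabine in both arms, as was the sum of the 10 genes, and their part in the values above was not tested.

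The 10 genes have 20 flanking protein-coding genes, of which 12 were tested in each arm and 1 was called higher, beside 8.71% of all genes tested in siLuc and 4.56% in siStau1 cells. The median log2 ratio of DAC to DMSO over the 20 was 0.28 in both arms, and 5 and 4 of them had a log2 ratio above 1. The gene called was KHDC3L, an oocyte gene 30577 bases from DDX43, which was listed at 0 with DMSO and rose to 5.39 FPKM in siLuc and 3.99 in siStau1 cells (q-value 0.00162 in both in the authors' deposited table). DDX43 is also overlapped by 2 genes of the opposite strand with the same pattern. OOEP, an oocyte protein gene, was at 0, 10.7, 0 and 9.98 FPKM in group order. CGAS, the cytosolic DNA sensor, was at 0, 1.2, 0.0306 and 1.5 FPKM.

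Neither OOEP nor CGAS was called (q-values 0.455 and 0.456 in siLuc, 0.269 and 0.433 in siStau1 cells in the authors' deposited table). If the counting did not use strand, reads of DDX43, OOEP and CGAS cannot be told apart where they overlap, so the level of DDX43 is uncertain. MTO1, on the other side, was expressed in all 4 groups at 21.1 to 32.2 FPKM. By contrast the annotated span of MAEL begins 100 bases from ILDR2, which was at 1.97, 3.38, 0.959 and 2.21 FPKM in group order. That outermost start lies 13527 bases from the principal start, near which the MAEL window printed above lies. TDRD9 lies 193 bases from ATP5MPL, which was at 179, 110, 152 and 175 FPKM in group order. Neither ILDR2 nor ATP5MPL was called with decitabine.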

How the data were processed

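Total RNA of 8 HCT116 libraries (4 groups of 2) was used; 3 further libraries of antibody-enriched repeat RNA hold no gene values and were not used here. Per the file headers, the authors deposited a table in Cuffdiff layout with 1 FPKM value per group and gene and, for 6 pairs of groups, a p-value and a q-value. The deposited q-value equals the Benjamini-Hochberg value over all 102180 tests, within 5.3e-07, and no deposited p-value is under 5e-05. The submitters' processing notes name HISAT2 2.1.0, featureCounts, Cuffdiff 2.2.1, Cuffnorm 2.2.1 and hg38, with no role or order. How overlapping genes were counted is not given in the sources used here.

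Log2 ratios were computed from FPKM with a pseudocount of 0.1 added, which understates the change of low genes, and no fold is given against a group listed at 0. Calls are the authors' q-values under 0.05. With 1 value per group, no standard deviation, count test or interval was possible, and precision is unknown. All 58699 gene identifiers matched GENCODE 29 (GRCh38), the source of positions, GC content and neighbours. Promoter windows came from RefSeq (GRCh38.p14), where 8 of the 10 genes had an entry. Scripts used Python 3.11.15, pandas 2.3.3, numpy 2.4.6 and scipy 1.17.1. Of their steps, the Benjamini-Hochberg adjustment and the centring within GC bins were tested on simulated data.

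The 10 genes and all lists (24 further piRNA pathway genes, 15 germ cell RNA regulators, 15 somatic relatives, and markers of germ, colon epithelial, fibroblast and leukocyte cells) were chosen with earlier results of these data known. Named genes were the 10, list genes called in any of the 4 comparisons, flanking and overlapping genes, and the 3 protein-coding genes nearest in pattern to each gene at 1 FPKM or more; single list genes were added where a sentence needed their level. Alternatives were the q-value limit, the adjustment, a floor of 1 FPKM, the pseudocount and centring on the median or within 20 GC bins.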

Additional observations from a re-analysis of the deposited data

How the results depend on the processing

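The values are 1 per group, so replicate spread, depth and leave-one-out fits could not be had, and these were not run. No paired analysis was possible because the deposited table gives no value per library. The 5 calls with decitabine in siLuc cells became 4 at a q-value under 0.01 (without PIWIL2) and 4 among genes at 1 FPKM or more in one group (without DDX4), and stayed 5 when adjusted within that comparison; the 3 calls in siStau1 cells and the 0 calls in both knockdown comparisons kept their number under each of these. The median log2 ratio over the 10 genes depends strongly on the pseudocount, since most DMSO values are at or near 0. In siLuc cells it was 3.58, and 5.39 with a pseudocount of 0.01, 1.63 with 1, 3.50 centred on the median gene, 3.98 within GC bins and 4.64 over genes at 1 FPKM or more. In siStau1 cells it was 4.56, and 6.80, 1.86, 4.54, 4.88 and 4.89 in the same order. For the knockdown in DMSO it was 0.00, and 0.017 centred on the median gene and -0.34 within GC bins; none of the 10 genes reached 1 FPKM there. For the knockdown with decitabine it was 0.01, and 0.12 centred on the median gene, -0.27 within GC bins and -0.036 over genes at 1 FPKM or more, so its sign turned under the last 2. No gene of the 10 reached 1 FPKM with DMSO, so that floor kept genes through their DAC values alone and the higher medians of 4.64 and 4.89 follow from it. The difference in the decitabine log2 ratio between the arms was 0.41, and 0.81 with a pseudocount of 0.01, 0.039 with 1 and 0.47 after centring each comparison. It was positive for 8 of the 10 genes with pseudocounts of 0.1 and 0.01 and for 6 with 1, where PIWIL4 and TDRD9 joined MAEL below 0. ASZ1, at or near 0 FPKM in all 4 groups, was among the positive genes with each pseudocount.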

Other observations

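Of 15 regulators of RNA in germ cells outside the piRNA pathway, 11 were under 0.5 FPKM in both DMSO groups. Of these 11, 5 were above 0.5 in both DAC groups, beside 10.9% of 7644 such protein-coding genes, a limit chosen after the values were seen. In siLuc cells 3 of 9 tested genes of the list had an unadjusted p-value under 0.05 in the authors' deposited table. The share of all genes under that unadjusted limit was not counted, and by q-value 13.5% were called in either direction. Called higher were 0 of 9 tested in siLuc cells and 2 of 9 in siStau1 cells, beside 8.71% and 4.56% of all genes tested. Those 2 were RBM46, an RNA-binding protein needed for meiosis, at 0.214 and 4.22 FPKM (q-value 0.0302 in the authors' deposited table), and BOLL, a relative of DAZL, at 0 and 0.817 FPKM (q-value 0.0326). LIN28B, which blocks maturation of let-7 microRNAs, was at 0.0644, 15.2, 0.0424 and 12.0 FPKM in group order, close to MAEL with decitabine. It was not called in either arm (q-values 0.0912 and 0.6 in the authors' deposited table). With the knockdown in DMSO, 4 of the 15 genes were tested. NANOS3, a germ cell survival factor, was the one called there, at 2.2 against 0 FPKM (q-value 0.00293 in the authors' deposited table), beside 0.799% of 15893 genes. How calls go with a value of 0 was counted for the decitabine comparisons only.

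Protein-coding genes nearest in pattern to each of the 8 genes were ranked by Euclidean distance of log2(FPKM + 0.1) over the 4 groups. This describes 4 values only, and any gene silent without decitabine and at a like level with it would lie near. Of 7644 protein-coding genes under 0.5 FPKM in both DMSO groups, 10.9% were above 0.5 in both DAC groups. The nearest to MAEL were MAGEA1 (distance 0.22), MAGEA12 and ZFP42, and to DAZL MAGEA12 (0.29), RHOXF1 and OOEP. For TDRD1 they were TXNIP (0.28), DPPA2 and MAGEB10, for DDX43 SSX3 (0.06), TRIM43B and BRDT, and for DDX4 GNGT2 (0.16), HORMAD1 and PRAC2. Those of PIWIL2 were FOXJ1 (0.64), MIA and JSRP1, those of PIWIL4 EFHD1 (0.57), SENP3-EIF4A1 and SALL4, and those of TDRD9 TMEM88 (0.41), DENND2A and SOX15.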
